A study of Mus musculus with 168 samples.

Results

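Transcript levels of p53 and of 6 genes that act on it were followed in 6 neuron populations of mice with spinal muscular atrophy (SMA), a motor neuron disease caused by loss of SMN protein. The 7 genes are Trp53, which encodes p53, and Mdm2, Mdm4, Ppm1d, Trp53inp1, Ei24 and Usp7. The set is given by gene names, with no threshold on the values, but was chosen with earlier results of these data known. Each gene is a single entry among the 39410 of the deposited table. In the delta7 model every mouse carried human SMN2 and an SMN∆7 transgene on both chromosomes. SMA mice lacked both copies of mouse Smn (Smn-/-/SMN2+/+/SMN∆7+/+), and control littermates had both (Smn+/+/SMN2+/+/SMN∆7+/+). Pools of neurons were cut by laser from the nuclei of the third and the fourth cranial nerve (the ocular population), the facial, hypoglossal and vagus nuclei, the lumbar spinal cord and the red nucleus, at postnatal days 2, 5 and 10. The red nucleus neurons are not motor neurons. The design asked how populations that differ in vulnerability respond before symptoms, early and late.

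The p53 protein is a transcription factor that is held at a low level by rapid turnover. Mdm2 is the ubiquitin ligase that marks it for degradation and is itself transcribed under p53, which closes a feedback loop. Its relative Mdm4 (MdmX) binds p53 and blocks its activity. Ppm1d (Wip1) is a phosphatase that reverses activating phosphorylation of p53 and of the kinases upstream of it. Usp7 (HAUSP) removes ubiquitin from Mdm2 and from p53. Trp53inp1 encodes a nuclear protein that promotes p53 activity, and Ei24 (PIG8) a membrane protein of the endoplasmic reticulum that acts in autophagy. Ppm1d, Trp53inp1 and Ei24 are known to be induced by p53. Loss of SMN is known to alter splicing of Mdm2 and Mdm4, and values per gene hold nothing on single exons.

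In 34 mice (19 SMA, 15 controls) there were 160 samples, each a population of a mouse, in 36 groups of 3 to 7 mice. Most mice gave several populations, so results for different populations share their animals. Levels are in RPKM, reads per kilobase of transcript and per unit of library depth, so genes can be compared by level. The shallowest library held 0.342 M reads (M standing for mega), the median one 5.89 and the deepest 16.3. Read numbers were worked out with all exons of the GENCODE M21 annotation as the length of a gene. At the median depth, 1 RPKM would then be 23.8 reads of Trp53, 30.0 of Mdm2 and 18.7 of Ppm1d. The length behind the RPKM is not given in the sources used here. Low Trp53 values, such as 0.509 RPKM in ocular control mouse 244 at day 2, did not fall on whole reads at this length. These read numbers can therefore be too high, and a shorter length would raise the limits at a count of 0. Smn1, the deleted gene, was lower in SMA in 18 of 18 comparisons, with log2 fold changes from -5.19 to -3.78 and no overlap between genotypes. Chat, the enzyme of acetylcholine synthesis that marks motor neurons, was listed at 0 in whole groups only in the red nucleus, where the summed level of 5 motor neuron markers reached 100.5 RPKM at most. In the other populations that sum was 452 RPKM or more. In these pools, fewer cells of a type and less RNA per cell cannot be told apart.

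Promoters of the genes were searched for the p53 half-site, the core sequence of which p53 binds a pair of copies. The search was made because Trp53 and Mdm2 were each called higher in SMA in comparisons given below, though never in the same one. The search covered the 250 bases before each start in RefSeq (GRCm38.p6). The motif is its own reverse complement, so one search covers both strands. It was found in 4 of the 6 members that had a promoter in the table, against 7.13% of 32851 promoters of that length. These 4 are shown 5′ to 3′ with the half-site in capitals. They lie at chr11:69580109-69580358 on the plus strand for Trp53, chr10:117710759-117711008 on the minus strand for Mdm2, chr11:85311004-85311253 on the plus strand for Ppm1d and chr9:36797335-36797584 on the minus strand for Ei24.
Trp53: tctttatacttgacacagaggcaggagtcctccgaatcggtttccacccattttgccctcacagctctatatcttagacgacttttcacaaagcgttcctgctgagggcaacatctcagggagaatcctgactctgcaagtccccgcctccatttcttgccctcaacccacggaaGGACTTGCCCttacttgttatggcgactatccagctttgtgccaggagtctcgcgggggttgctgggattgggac
Mdm2: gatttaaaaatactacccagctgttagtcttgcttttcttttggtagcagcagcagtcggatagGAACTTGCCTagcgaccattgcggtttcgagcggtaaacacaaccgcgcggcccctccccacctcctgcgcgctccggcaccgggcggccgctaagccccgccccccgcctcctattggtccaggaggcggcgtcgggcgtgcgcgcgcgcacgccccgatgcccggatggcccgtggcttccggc
Ppm1d: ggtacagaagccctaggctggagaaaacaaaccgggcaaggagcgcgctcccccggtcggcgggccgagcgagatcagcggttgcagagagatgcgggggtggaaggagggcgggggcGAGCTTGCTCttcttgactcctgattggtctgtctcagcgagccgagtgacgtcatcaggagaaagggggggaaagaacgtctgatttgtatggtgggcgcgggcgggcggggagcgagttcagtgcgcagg
Ei24: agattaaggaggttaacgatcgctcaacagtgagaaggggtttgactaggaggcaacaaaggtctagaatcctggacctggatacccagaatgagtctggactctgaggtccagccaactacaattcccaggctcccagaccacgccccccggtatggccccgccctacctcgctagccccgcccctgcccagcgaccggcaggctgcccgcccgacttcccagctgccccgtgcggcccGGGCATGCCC
By GENCODE M21 (GRCm38) the Trp53 gene spans chr11:69580359-69591873 on the plus strand and the Mdm2 gene chr10:117688875-117710758 on the minus strand, so both windows end at the base before the annotated start. The first base of the half-site lay 75 bases before the RefSeq start in Trp53, 132 in Ppm1d and 10 in Ei24, and farther upstream in Mdm2. By GENCODE the Ei24 gene spans chr9:36779159-36797393 on the minus strand, so its half-site lies inside the annotated gene. The windows of Usp7 and of both Mdm4 starts held no match. The Usp7 window (chr16:8738343-8738592) and an Mdm4 window (chr1:133025417-133025666) also lie inside their GENCODE genes. Their lack of a match says nothing on the start annotated there. A match describes letters and is not shown to be a bound site. The well-known response elements of Mdm2 lie in its first intron, outside this window.

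By level, the genes fell into 2 sets. Usp7 (21.3 ± 9.10 RPKM), Ei24 (20.3 ± 7.69), Mdm2 (13.7 ± 7.80) and Trp53 (10.9 ± 6.15; all SD, n = 160) had the higher means. Ppm1d (3.10 ± 2.46), Mdm4 (2.23 ± 1.73) and Trp53inp1 (1.88 ± 1.80; SD, n = 160) were low. Mdm4 was therefore present at a lower level per length than its relative Mdm2. Mdm4 was listed at 0 in 2 red nucleus samples of SMA mice. With all annotated exons as its length, their depths allow up to 0.0378 and 0.0385 RPKM. Trp53inp1 was listed at 0 in 2 control samples. One of them is the red nucleus library of mouse 252, the shallowest of the study, where a count of 0 allows up to 1.36 RPKM on the same basis. These limits cover counting error only, and a shorter gene length would raise them. Trp53 has a pseudogene, Trp53-ps, with a median of 0 and a highest value of 2.27 RPKM, and the highest value of Mdm4-ps was 0.429. Ei24 overlaps exons of an antisense gene, Gm26787, with a median of 0 and a highest value of 10.5 RPKM. Whether the counting used strand is not given in the sources used here, so reads shared by Ei24 and Gm26787 cannot be told apart. How reads that match both a gene and its pseudogene were counted is not given either.

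SMA and control were compared in 18 combinations of population and day with limma on log2(RPKM + 1), which understates the change of low genes. For the 7 genes, 4 results passed an adjusted p of 0.05 and all were higher in SMA: Trp53 in ocular neurons at day 2 and in facial neurons at day 10, and Mdm2 in ocular and lumbar neurons at day 10. None was lower by limma, by any setting tried, although 2 results had an unadjusted p under 0.05 in that direction, against 25 that were higher. Here and below, the share of all genes at an unadjusted p under 0.05 was not counted. Over all genes tested in these comparisons, 0.11% were called higher and 0.0189% lower. The log2 difference was positive in 94 results and negative in 32, with a median of 0.33. By day, 25 of 42 differences were positive at day 2, 32 of 42 at day 5 and 37 of 42 at day 10. Of all genes, 48.7 to 63.6% were positive in the 18 comparisons. The comparisons of a day share mice, and a change with day was not shown for any member. Values of the 2 genotypes did not overlap in 13 results (10.3%), all with SMA higher, against 1.95% of all genes with SMA higher and 1.11% with SMA lower.

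**Figure D1:**
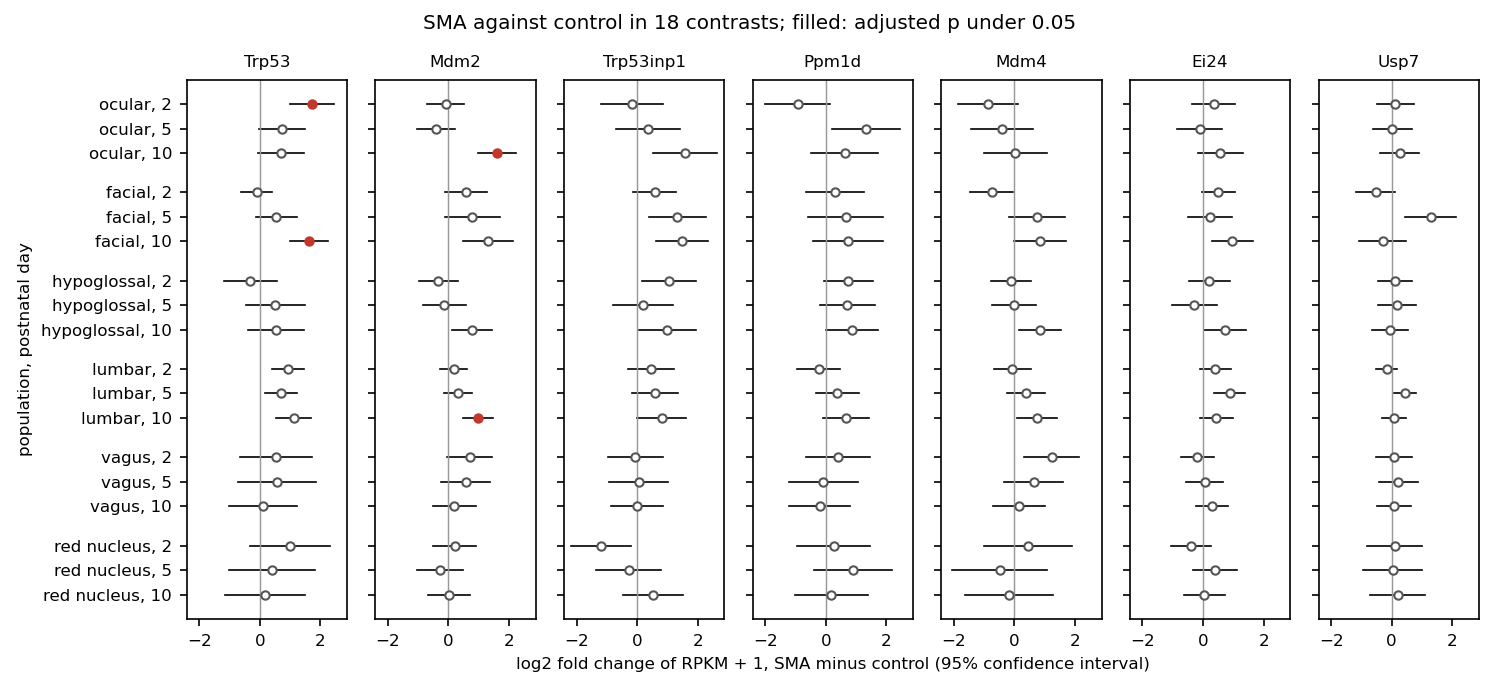
Log2 fold change of RPKM + 1, SMA minus control (horizontal axis), with 95% confidence intervals, for each of the 7 genes (panels) in the 18 combinations of population and postnatal day (vertical axis). Filled points are the 4 results with an adjusted p under 0.05 (limma), 2 for Trp53 and 2 for Mdm2, and all lie to the right of 0.

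Trp53 in facial neurons at day 10 differed most firmly. Control mice had 5.01, 6.38, 6.92 and 11.3 RPKM, and SMA mice 16.4, 21.5, 26.5 and 35.1. Every SMA mouse lay above every control mouse. The means were 7.39 ± 2.70 and 24.9 ± 7.98 (SD, n = 4 each), a ratio of 3.36, and the log2 fold change was 1.62 (SE 0.301, adjusted p = 0.00487, limma). Of all genes, 0.562% were called higher in this comparison. The call held when any 1 of the 8 mice was left out, and was lost when only these groups were fitted (limma adjusted p = 0.104). The astrocyte gene Gfap also rose here, from 1.63 ± 0.991 to 17.0 ± 4.88 RPKM (SD, n = 4 each, limma adjusted p = 0.00742). Of the 5 astrocyte markers 4 had positive differences (median log2 0.46), and only Gfap was called by limma. Their summed level, which includes Gfap, was 39.2 to 68.3 RPKM in SMA and 25.2 to 35.7 in controls, with no marker at 0 in either group. All 6 microglia markers had positive differences as well (median log2 0.68, 0 at an unadjusted p under 0.05, none called by limma). Their sums were 2.69 to 27.7 RPKM in SMA and 2.26 to 4.08 in controls. Of the oligodendrocyte markers 2 of 6 were positive, and of the vessel markers 0 of 3. The part of these lists in the Trp53 result was not tested.

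At the earlier ages facial Trp53 did not separate the genotypes. At day 2 its means were 14.7 ± 2.87 in controls (n = 5) and 13.7 ± 2.97 in SMA (SD, n = 7). At day 5 they were 9.25 ± 3.21 (n = 4) and 14.0 ± 5.99 (SD, n = 3). Whether the difference changed with day was tested directly and did not pass (F test over the 2 genotype-by-day terms, limma adjusted p = 0.246).

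Trp53 in ocular neurons rose at day 2. Control mice had 0.509, 1.56, 2.52 and 4.09 RPKM, and the 6 SMA mice ran from 4.36 to 16.1 with a median of 7.97. The groups did not overlap, but the lowest SMA mouse was close to the highest control. The means were 2.17 ± 1.52 (n = 4) and 9.22 ± 4.26 (SD, n = 6), and the log2 fold change was 1.72 (SE 0.360, limma adjusted p = 0.0459). In this comparison 0.101% of all genes were called higher. The call was lost under 6 of 8 other settings, with a limma adjusted p of up to 0.447, and when any 1 of 7 of the 10 mice was left out. Without control mouse 244, whose Trp53 was the lowest, the limma adjusted p was 0.161. Values without overlap and higher in SMA were found for 0.975% of all genes. The summed level of 6 oligodendrocyte markers was 28.0 to 150.7 RPKM in SMA and 17.3 to 29.2 in controls. All 6 had a positive difference (median log2 0.69), 2 at an unadjusted p under 0.05, and none was called by limma or at 0 in either group. Their part in the Trp53 result was not tested.

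At day 10 ocular Trp53 no longer passed. Control mice had 10.6, 13.0, 15.7 and 15.9 RPKM, and SMA mice 17.4, 18.7, 25.2, 27.1 and 27.6. The groups again did not overlap, yet the log2 fold change was 0.70 (SE 0.375, limma adjusted p = 0.875). The control level had by then moved from 2.17 at day 2 to 13.8.

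In lumbar motor neurons Trp53 gave differences of similar size at all 3 ages. The log2 fold change was 0.93 at day 2 (SE 0.261), 0.70 at day 5 (SE 0.263) and 1.12 at day 10 (SE 0.279), with limma adjusted p of 0.521, 0.444 and 0.0506. The lumbar control libraries of day 5 include reads added from an earlier deposit, and the part of these in the day 5 difference was not tested. At day 10 control mice had 6.73, 6.80, 7.16 and 12.3 RPKM, and SMA mice 13.4, 14.3, 15.9, 24.8 and 28.4. Mouse 252 was the high control, and the groups did not overlap. Without mouse 252 or without mouse 199 the result passed the threshold, with an adjusted p as low as 0.0344. In hypoglossal, vagus and red nucleus neurons Trp53 overlapped between genotypes at every age. The 95% intervals at day 10, -0.39 to 1.44, -1.02 to 1.23 and -1.14 to 1.51, include differences as large as those of lumbar neurons.

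**Figure D2:**
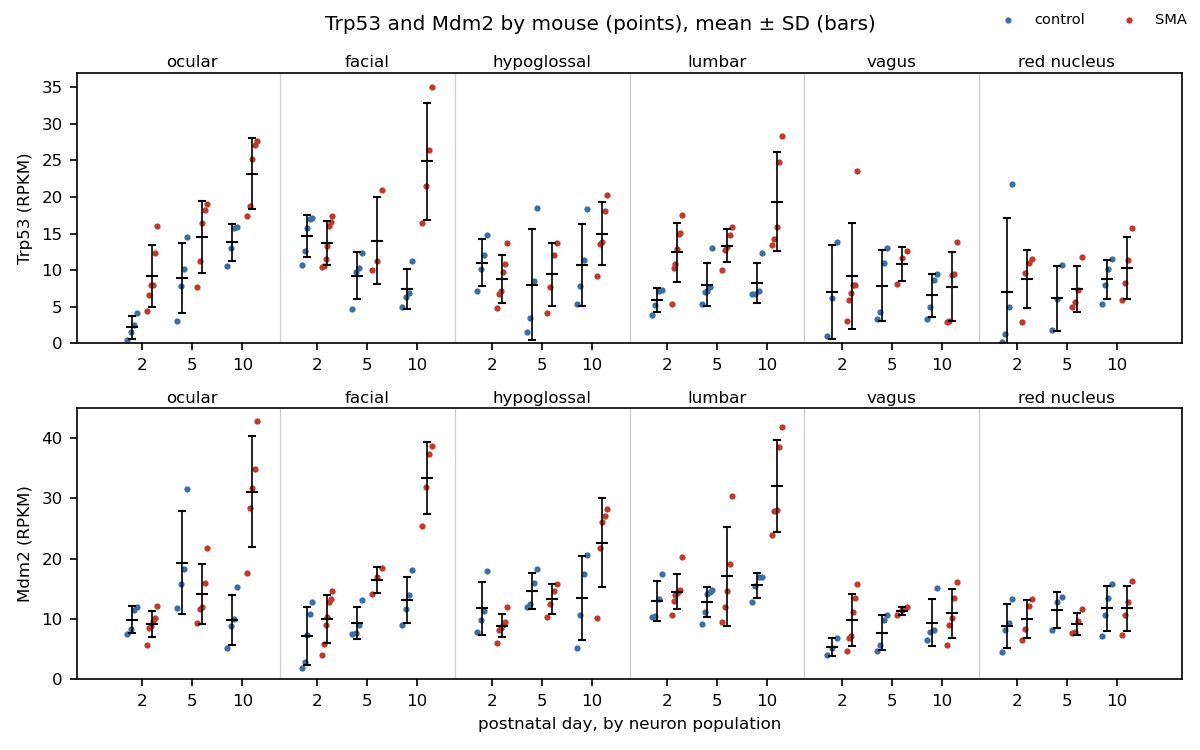
Trp53 (top) and Mdm2 (bottom) in RPKM (vertical axes) for each mouse (points), with mean ± SD (bars, cut at 0), by neuron population and postnatal day (horizontal axis), control in blue and SMA in red. At day 10 the SMA mice lie above all controls for both genes in ocular, facial and lumbar neurons, and the genotypes overlap in hypoglossal, vagus and red nucleus neurons.

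Mdm2, the ligase and feedback target of p53, rose in ocular neurons at day 10. Control mice had 5.11, 8.86, 10.0 and 15.2 RPKM, and SMA mice 17.6, 28.4, 31.7, 34.9 and 42.9. All SMA mice were above all controls. The means were 9.81 ± 4.18 (n = 4) and 31.1 ± 9.26 (SD, n = 5), a ratio of 3.17, and the log2 fold change was 1.60 (SE 0.305, limma adjusted p = 0.00763). Of all genes, 0.334% were called higher. Motor neuron marker genes moved the other way here. Their summed level was 452 to 875 RPKM in SMA and 926 to 1024 in controls, with none of the 5 at 0 in either group. Of the 4 tested, 0 had a positive difference (median log2 -0.48), 2 had an unadjusted p under 0.05 and none was called by limma. Both red nucleus markers, of a nucleus nearby, had positive differences (median log2 1.65, 1 at an unadjusted p under 0.05, none called by limma), with sums of 9.07 to 176.9 RPKM in SMA and 4.74 to 16.9 in controls and neither at 0. The part of either list in the result was not tested. Some ocular libraries held 1 nucleus alone, and without them the log2 fold change was 1.36 with a limma adjusted p of 0.460 (3 mice a genotype). The Mdm2 call was also lost when only the day 10 groups were fitted. Without control mouse 247, the lowest, the limma adjusted p was 0.0749.

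At the earlier ages the ocular difference in Mdm2 had the opposite sign and did not pass. The log2 fold change was -0.10 at day 2 (SE 0.294) and -0.40 at day 5 (SE 0.305). The 4 day 5 controls had 11.7, 15.7, 18.3 and 31.6 RPKM, and the SMA mice 9.23, 11.6, 11.9, 15.9 and 21.8. Among the tests of whether a genotype difference of the 7 genes changed with day, this one came nearest to the threshold (F = 12.5, unadjusted p = 0.000133, limma adjusted p = 0.0755). In limma it passed without mouse 71 (adjusted p = 0.0495) and without mouse 250 (0.0305). In all, none of the 42 such tests of the members passed, against 0.0344% of all genes over the 6 populations, and 7 had an unadjusted p under 0.05.

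Mdm2 rose in lumbar motor neurons at day 10 by a smaller amount. Control mice had 12.7, 15.5, 17.0 and 17.0 RPKM, and SMA mice 23.9, 27.9, 28.0, 38.6 and 41.7. The ranges were well apart. The means were 15.5 ± 2.01 (n = 4) and 32.0 ± 7.68 (SD, n = 5), and the log2 fold change was 0.98 (SE 0.241, limma adjusted p = 0.0468). Of all genes, 0.708% were called higher. The adjusted p exceeded 0.05 under 6 of 8 other settings, reaching 0.0831, and when any 1 of 8 of the 9 mice was left out, reaching 0.158.

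In facial neurons at day 10 Mdm2 separated the genotypes without passing. Control mice had 9.02, 11.6, 13.9 and 18.1 RPKM, and SMA mice 25.5, 31.9, 37.4 and 38.7. The log2 fold change was 1.30 (SE 0.408, limma adjusted p = 0.208). At day 5 the facial groups were also apart, with 7.41 to 13.2 RPKM in 4 controls and 14.2 to 18.4 in 3 SMA mice. Hypoglossal Mdm2 at day 10 overlapped, with a log2 difference of 0.78 (SE 0.322, limma adjusted p = 0.661); SMA mouse 258 had 10.1 RPKM and the other 4 SMA mice 21.8 to 28.2. In the red nucleus the day 10 means were 11.7 ± 3.68 and 11.8 ± 3.74 RPKM (SD, n = 4 each), with a 95% interval of the log2 difference from -0.69 to 0.70. In vagus neurons the interval was -0.51 to 0.90.

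Whether the Mdm2 difference itself differed between populations at day 10 was tested in a joint fit of all samples. It did not pass (F = 3.65, unadjusted p = 0.00403, limma adjusted p = 0.285). At day 2 the same test gave unadjusted p values of 0.00918 for Trp53, 0.0116 for Trp53inp1 and 0.0124 for Mdm4, and none passed after adjustment. None of the 21 tests of members passed by limma, and these 4 were the ones with an unadjusted p under 0.05. Of all genes, 0.4% passed at day 2, 0.207% at day 5 and 0.579% at day 10. The members called in some populations are therefore not shown to respond differently from the same genes in others.

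Trp53inp1, the low-level promoter of p53 activity, gave no call but differed with little overlap in several populations. In ocular neurons at day 10 control mice had 0.825, 0.987, 1.34 and 1.64 RPKM, and SMA mice 4.54, 4.80, 5.39, 5.94 and 6.99. The lowest SMA mouse was far above the highest control, and the log2 fold change was 1.57 (SE 0.519, limma adjusted p = 0.422). The same fit held the day 2 groups, in which 4 controls ran from 0.0844 to 8.93 RPKM; with only the 2 day 10 groups fitted, the adjusted p was 0.0295. In facial neurons at day 10 controls had 0.201, 0.599, 1.03 and 2.01 RPKM and SMA mice 2.05, 4.10, 4.18 and 8.02, with a log2 difference of 1.49 (SE 0.421, limma adjusted p = 0.138). At day 5 the facial values were also apart, at 0.716 to 1.21 RPKM in 4 controls and 2.77 to 5.58 in 3 SMA mice (log2 fold change 1.32, SE 0.454, limma adjusted p = 0.759). Of all genes, 4.05% were higher in SMA without overlap in this comparison. Oligodendrocyte markers were lower there, 0 of 6 positive and 5 at an unadjusted p under 0.05 (median log2 -1.57, none called by limma), with a median sum of 66.1 RPKM in SMA and 156.4 in controls. Mog was at 0 in that SMA group. Their part was not tested. In red nucleus neurons at day 2 the sign was reversed, at -1.18 (SE 0.478, limma adjusted p = 0.446). Controls there had 0.233, 1.20, 3.81 and 4.83 RPKM and SMA mice 0.112, 0.173, 0.298 and 0.700, overlapping through 1 control.

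Non-overlapping values of the members were concentrated in 3 populations at day 10. There were 3 such genes in ocular neurons (Trp53, Mdm2, Trp53inp1), the same 3 in facial neurons, and Trp53 and Mdm2 in lumbar neurons. The share of all genes with SMA higher and no overlap was 2.32% in ocular, 3.32% in facial and 2.76% in lumbar neurons at this age. In hypoglossal, vagus and red nucleus neurons no member was without overlap at day 10. Hypoglossal neurons had 5 of 7 members at an unadjusted p under 0.05, all higher in SMA and none called (limma adjusted p from 0.661 to 0.724). These were Mdm2, Mdm4 (log2 difference 0.84), Ppm1d (0.86), Trp53inp1 (0.995) and Ei24 (0.72). The number was 2 in ocular, 4 in facial and 4 in lumbar neurons, and 0 in vagus and red nucleus neurons. The share of all genes at this unadjusted level was not counted, so these numbers have no background to be read against. Hypoglossal Mdm4 was 0.282, 0.917, 0.975 and 1.19 RPKM in controls and 0.726, 2.37, 2.58, 2.64 and 3.61 in SMA mice, overlapping through mouse 258. Of 5 astrocyte markers 4 had positive differences there (median log2 0.80), with sums of 37.6 to 51.8 RPKM in SMA and 17.5 to 40.5 in controls and none at 0, and their part was not tested. The day 10 comparisons rest on the same 4 control mice in every population and on 4 or 5 of the same 5 SMA mice, so they are not independent.

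Ppm1d, a phosphatase that counteracts p53, was not called in any comparison. Its log2 fold changes ran from -0.92 to 1.33 with a median of 0.52, and 14 of 18 were positive. At day 5 in ocular neurons control mice had 0.603, 0.603, 0.724 and 1.45 RPKM and SMA mice 2.04, 2.35, 2.64, 3.42 and 11.1, without overlap (log2 fold change 1.33, SE 0.542, limma adjusted p = 0.632), as were 1.39% of all genes with SMA higher. At day 2 in the same population the means stood the other way round, at 6.78 ± 6.37 RPKM in controls (n = 4) and 2.42 ± 1.98 in SMA (SD, n = 6). That control group held mouse 244 with 15.5 RPKM and mouse 28 with 0.586, so its spread was as large as its mean.

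Mdm4, the second inhibitor, was likewise not called. Its differences were the most evenly divided of the 7 genes, 10 positive and 8 negative, with a median of 0.08. In vagus neurons at day 2 controls had 0.682, 1.10 and 1.80 RPKM, and the 6 SMA mice 2.48 to 7.57 with a median of 4.06, without overlap (log2 fold change 1.24, SE 0.440, limma adjusted p = 0.648), as were 1.81% of all genes with SMA higher. In facial neurons at day 2 it stood lower in SMA, at 1.75 ± 0.907 RPKM (n = 7) against 3.64 ± 1.83 (SD, n = 5), with a log2 difference of -0.74 (SE 0.346, limma adjusted p = 0.533). At day 10 the facial means were 2.26 ± 1.07 in SMA and 0.764 ± 0.300 in controls (SD, n = 4 each), and the log2 fold change was 0.85 (SE 0.418, limma adjusted p = 0.652).

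**Figure D3:**
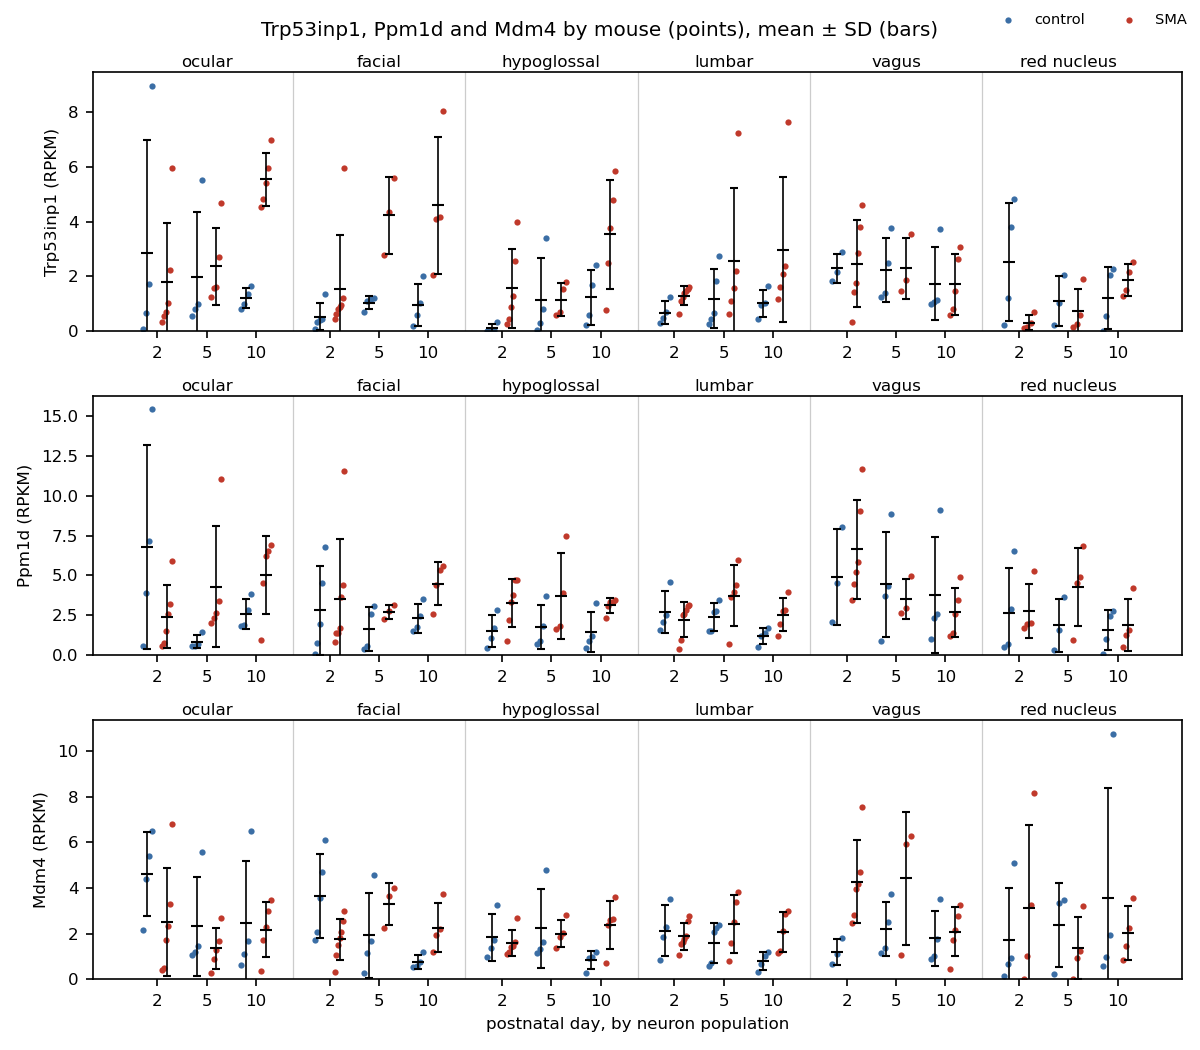
Trp53inp1 (top), Ppm1d (middle) and Mdm4 (bottom) in RPKM (vertical axes) for each mouse (points), with mean ± SD (bars, cut at 0), by population and postnatal day (horizontal axis), control in blue and SMA in red. Trp53inp1 at day 10 runs from 4.54 to 6.99 in ocular neurons of SMA mice and from 0.825 to 1.64 in controls, and control mouse 244 reaches 15.5 for Ppm1d in ocular neurons at day 2.

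Ei24, the autophagy gene, gave no call and no comparison without overlap. Its differences were positive in 14 of 18 comparisons, with a median of 0.32. In lumbar neurons at day 5 controls had 6.12, 11.8, 12.02, 14.8 and 22.2 RPKM. SMA mice had 17.3, 21.6, 22.0, 28.7 and 31.9, and 1 control overlapped (log2 fold change 0.88, SE 0.252, limma adjusted p = 0.257). The libraries of these controls include reads added from an earlier deposit, and the part of these reads was not tested. In facial neurons at day 10 controls had 9.60, 10.5, 14.0 and 14.1 RPKM and SMA mice 11.2, 23.9, 31.1 and 40.7 (log2 fold change 0.97, SE 0.326, limma adjusted p = 0.274). Mouse 249 was the low SMA mouse, and without it the adjusted p was 0.0429.

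Usp7, the deubiquitinase of Mdm2 and p53, was not called. Its median log2 fold change was 0.09, and no comparison passed or was without overlap. At day 10 in lumbar neurons the means were 20.0 ± 1.40 RPKM in controls (n = 4) and 21.1 ± 2.33 in SMA (SD, n = 5), with a 95% interval of the log2 difference from -0.31 to 0.46. Its largest difference, 1.28 in facial neurons at day 5 (SE 0.405, limma adjusted p = 0.650), came from mouse 31 with 101.4 RPKM, the highest Usp7 value of the study. The other SMA mice had 18.2 and 19.6 RPKM and the controls 7.76 to 20.9. Without mouse 31 the log2 fold change was 0.49.

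**Figure D4:**
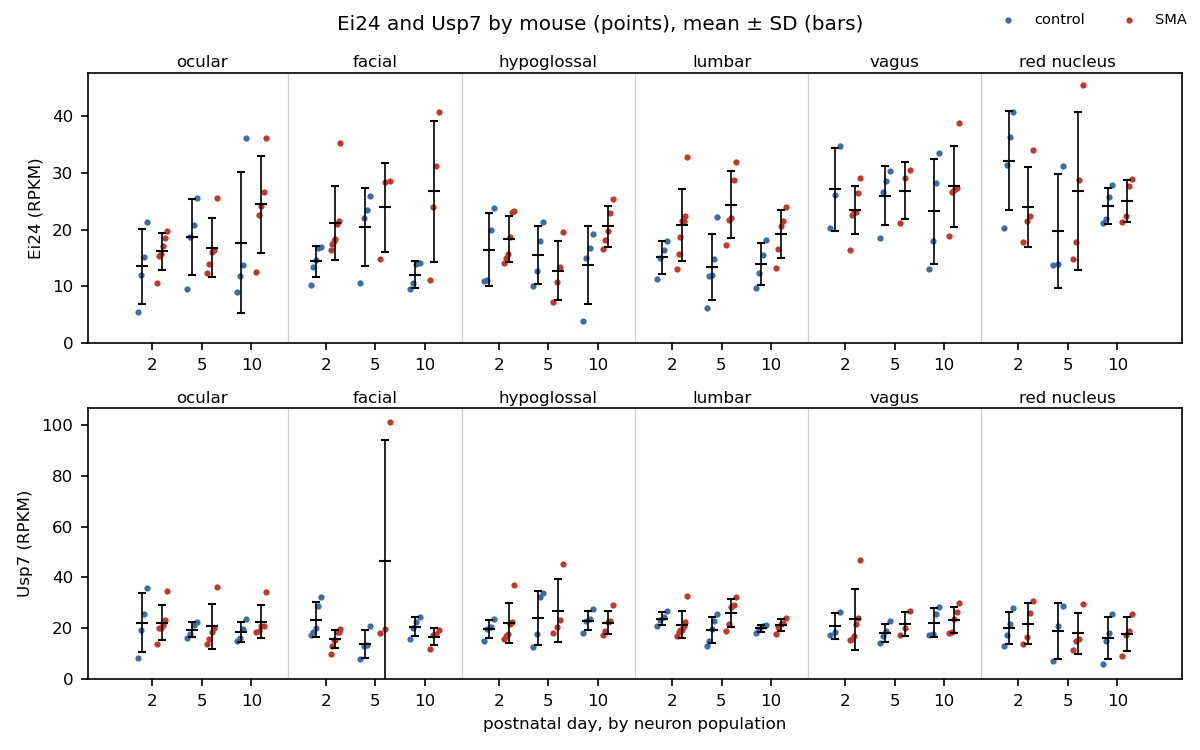
Ei24 (top) and Usp7 (bottom) in RPKM (vertical axes) for each mouse (points), with mean ± SD (bars, cut at 0), by population and postnatal day (horizontal axis), control in blue and SMA in red. Genotypes overlap everywhere, the Ei24 control means of vagus and red nucleus neurons are the highest, and mouse 31 stands at 101.4 RPKM for Usp7 in facial neurons at day 5.

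In controls, levels of 3 members differed between populations: Mdm2 (limma F test, adjusted p = 0.000654), Ei24 (2.77e-05) and Trp53inp1 (0.0424). The Trp53inp1 test no longer passed under 4 of 8 other settings (limma adjusted p up to 0.123) or without any 1 of 11 mice (up to 0.127). Among all genes 42.5% passed this test, so a difference between populations was common. For Mdm2 the order of the means was lumbar (13.6 ± 2.75 RPKM, n = 13), hypoglossal (13.3 ± 4.75, n = 12), ocular (13.0 ± 6.95, n = 12), red nucleus (10.6 ± 3.42, n = 11), facial (9.65 ± 4.47, n = 13) and vagus (7.66 ± 3.22, all SD, n = 11). Neighbours in this order differed by less than their SD. Against the mean of the other populations, Mdm2 was higher in lumbar neurons (log2 difference 0.41, SE 0.145, limma adjusted p = 0.0329), where 9.12% of all genes were higher. It was lower in vagus neurons (-0.61, SE 0.156, limma adjusted p = 0.000988), where 11.2% of all genes were lower.

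Ei24 stood highest in red nucleus (25.8 ± 8.62 RPKM) and vagus neurons (25.3 ± 6.90, SD, n = 11 each) of controls. The other 4 populations had means from 14.1 to 16.6. The log2 difference from the other populations was 0.55 in the red nucleus (SE 0.154, limma adjusted p = 0.00386) and 0.59 in vagus neurons (SE 0.154, adjusted p = 0.00128). Of all genes, 8.59% were called higher in the red nucleus and 14.7% in vagus neurons. Ppm1d (0.72, SE 0.242, limma adjusted p = 0.0160) and Trp53inp1 (0.59, SE 0.217, adjusted p = 0.0324) were also higher in vagus neurons. Vagus neurons of controls had the lowest mean of Mdm2 among the 6 populations. They also had the highest means of Ppm1d (4.32 ± 3.04 RPKM) and Trp53inp1 (2.06 ± 1.03, SD, n = 11). Ocular neurons were close, at 3.41 ± 4.26 for Ppm1d and 2.01 ± 2.58 RPKM for Trp53inp1 (SD, n = 12). Ppm1d did not pass the test over all populations (limma F test, adjusted p = 0.0948).

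Trp53, Mdm4, Ppm1d and Usp7 did not pass the test over control populations. The Trp53 means ran from facial (10.8 ± 4.25 RPKM, n = 13) through hypoglossal (9.91 ± 5.41, n = 12), ocular (8.31 ± 5.78, n = 12), lumbar (7.44 ± 2.54, n = 13) and red nucleus (7.43 ± 6.11, n = 11) to vagus (7.16 ± 4.29, SD, n = 11). The Usp7 means lay between 18.3 and 22.3 RPKM, the narrowest range for their size. The Mdm4 means lay between 1.504 in lumbar and 3.13 in ocular neurons, each with an SD of 0.953 or more.

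Between day 2 and day 10 in controls, 1 member rose and 1 fell in the 42 tests. Trp53 rose in ocular neurons from 2.17 ± 1.52 to 13.8 ± 2.51 RPKM (SD, n = 4 each), a log2 change of 2.34 (SE 0.395, limma adjusted p = 0.000256). The 4 day 2 mice had 4.09 RPKM at most and the 4 day 10 mice 10.6 at least. In this comparison 4.38% of all genes rose. The oligodendrocyte marker sum of ocular controls had a median of 20.9 RPKM at day 2 and 460.4 at day 10, and its part in the change was not tested. Trp53 in facial neurons went the other way without passing, from 14.7 ± 2.87 (n = 5) to 7.39 ± 2.70 RPKM (SD, n = 4), a log2 difference of -0.93 (SE 0.285, limma adjusted p = 0.0539). At day 2 the ocular controls were thus the lowest and the facial controls the highest of the 18 control groups for Trp53.

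Mdm4 fell in facial neurons of controls, from 3.64 ± 1.83 (n = 5) to 0.764 ± 0.300 RPKM (SD, n = 4), a log2 change of -1.32 (SE 0.397, limma adjusted p = 0.0496). Among all genes 2.76% fell in this comparison, and over the 6 populations 3.38% rose and 3.67% fell. The oligodendrocyte marker sum of facial controls had a median of 34.6 RPKM at day 2 and 255.98 at day 10, and its part was not tested. The limma adjusted p exceeded 0.05 under 2 other settings and when any 1 of 20 of the 34 mice was left out, reaching 0.124. Many of these mice belong to neither compared group, and leaving such a mouse out kept the log2 change at -1.32. Mdm2 in facial controls had means of 7.13 ± 4.81 (n = 5) at day 2 and 13.2 ± 3.84 RPKM (SD, n = 4) at day 10, which did not pass (log2 difference 1.01, SE 0.388, limma adjusted p = 0.145).

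Across the 36 group means of log2(RPKM + 1), Trp53 and Mdm2 varied together with r = 0.58, and Mdm2 and Trp53inp1 with r = 0.51. Ppm1d varied most with Trp53inp1 (r = 0.51) and less with Mdm4 (r = 0.38). Usp7 and Ei24 had r = -0.13. Groups share mice and libraries, so these are descriptions. Among 14018 genes, Mdm2 was most like Trim72 (r = 0.81) and Lrdd (r = 0.79), and Trp53 most like Sdhaf1 (r = 0.74) and Lrdd (r = 0.73). Lrdd is the older symbol of Pidd1, a known p53 target. Trp53inp1 was most like Rab42 and Ddit4l (both r = 0.74), Ei24 like Arhgef28 (r = 0.80) and Cep170b (r = 0.75), and Ppm1d like Ccdc71l (r = 0.65) and Cirbp (r = 0.63). Mdm4 was most like Ubp1 (r = 0.63) and Kif26b (r = 0.58), and Usp7 like 2810055G20Rik (r = 0.63) and Hp1bp3 (r = 0.57).

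Other regulators of p53 were read from a list of 29 genes that holds its kinases (Atm, Atr, Chek1, Chek2), acetylases and deacetylases (Ep300, Crebbp, Kat5, Sirt1), other ubiquitin ligases and the p53 relatives. In 468 results 1 was called higher, none lower, and 20 were higher and 9 lower at an unadjusted p under 0.05 (limma). A single call in so many is near the 0.11% of all genes called higher. The call was Trp73, a p53 relative, in facial neurons at day 10. All 4 controls were listed at 0, and the 4 SMA mice ran from 0.614 to 3.92 RPKM (limma adjusted p = 0.00590). No regulator was called, Trp73 included, when only the compared groups were fitted or without SMA mouse 196, 249 or 258.

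A list of 24 other genes transcribed under p53 was read in the same way. It was chosen with earlier results of these data known, and the comparisons share mice. Its counts describe the list and are no independent test. In 387 results 37 were called higher, against the 0.11% of all genes given above, none lower, and 114 were higher and 3 lower at an unadjusted p under 0.05. The calls were of 13 genes, led by the cell cycle inhibitor Cdkn1a (7 comparisons), the kinase gene Plk2 (5), and Ccng1, Fas and Gtse1 (4 each). In hypoglossal neurons at day 10, where no member was called, 4 of these targets were, against 0.0667% of all genes called higher. In vagus and red nucleus neurons at day 10 no target and no member was called; 1 and 4 targets had an unadjusted p under 0.05 (limma).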

How the data were processed

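RNA of laser-captured neuron pools was made into full-length cDNA libraries with Smart-seq2 and Tn5, per the labels' protocols. The authors deposited 1 table of RPKM for 168 libraries; STAR 2.4.1c and the builds mm10 and hg19 are named in the submitters' processing notes, and the counter, annotation and use of strand are not given in the sources used here. Per the labels, the lumbar control libraries of day 5 include reads added from an earlier deposit.

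RPKM of libraries of the same mouse and population (8 of 160 samples had more than 1) were averaged, and log2(RPKM + 1) was fitted with limma 3.58.1 in R 4.3.3 (lmFit, eBayes with a trend). Each population had its own fit of 6 groups; tests between populations used 1 fit of 36 groups. Genes entered with an RPKM of 1 or more in as many samples as the smallest group held; all 7 passed in all 6 populations. Tests were two-sided, p-values of a contrast were adjusted together (Benjamini-Hochberg), with a threshold of 0.05. The procedure was tested on simulated data. Depth was taken from the equal steps of low RPKM values; these fell on whole reads, within 0.1%, for 59.8 to 76.4% of low values per library, so no count test was run.

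Members and lists were chosen with earlier results of these data known. The 7 genes are described whatever their values; of the list of regulators the called genes are named, of the list of targets the 3 called most often with ties, and for each member the 2 genes with the most similar group means. Alternatives were another pseudocount, no filter, quantile normalization, no trend, libraries kept apart, only the compared groups, day 2 controls of high library number left out, each mouse left out, and the mouse as a block; leaving out ocular libraries of a single nucleus was chosen after seeing the data. Mouse numbers mark animals, so samples of a mouse are paired across populations. Deviations from group means correlated at -0.075 to 0.339 (median 0.0415) between populations of a mouse and at a median of -0.00113 between mice. Replicates within a group are separate mice.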

Additional observations from a re-analysis of the deposited data

Results flagged for a closer look

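In groups of 4 to 7 mice, 15 single values stood apart from the rest of their group by Dixon's test (9 high, 6 low). They make up 6.7% of the groups tested, and chance marks about 1 in 20; groups of 3 mice were not tested. Trp53 was high in lumbar control mouse 252 at day 10 (12.3 RPKM, others 6.73 to 7.16) and low in red nucleus SMA mouse 211 at day 2 (2.96, others 9.56 to 11.6). Mdm2 was low in hypoglossal SMA mouse 258 at day 10 (10.1, others 21.8 to 28.2). Mdm4 was high in ocular control mouse 29 at day 5 (5.57, others 1.08 to 1.47).

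Ppm1d, a gene of low level, had 5 such values. It was high in ocular SMA mouse 76 at day 5 (11.1 RPKM, others 2.04 to 3.42) and in red nucleus SMA mouse 211 at day 2 (5.28, others 1.71 to 2.03). It was low in hypoglossal SMA mouse 249 (2.35, others 3.11 to 3.43) and ocular SMA mouse 250 (0.933, others 4.53 to 6.88) at day 10, and in lumbar SMA mouse 77 at day 5 (0.684, others 3.64 to 5.96). Trp53inp1 was high in facial SMA mouse 211 at day 2 (5.94, others 0.458 to 1.20) and in vagus control mouse 254 at day 10 (3.73, others 1.01 to 1.14).

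Ei24 was high in facial SMA mouse 207 at day 2 (35.3 RPKM, others 16.4 to 21.5) and low in hypoglossal control mouse 247 at day 10 (3.83, others 15.1 to 19.3). Usp7 was high in lumbar SMA mouse 211 at day 2 (32.9, others 17.1 to 22.3) and in ocular SMA mouse 249 at day 10 (34.2, others 18.4 to 20.8). Mouse 211 accounts for 4 of the 15 values, in 3 populations.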

How the results depend on the processing

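The count of members called higher in SMA, 4 as reported, was 1 to 3 under the 8 alternatives, so no alternative kept all 4 calls. It was 2 without a filter on low values and 2 under quantile normalization. It was also 2 without the day 2 controls of high library number, and 2 without ocular libraries of a single nucleus. When only the compared groups were fitted, none of the 4 reported calls held. The 1 call there was Trp53inp1 in ocular neurons at day 10. With each mouse left out, 1 to 5 were called. The count was 1 without mouse 247, and 2 without mouse 30, 46, 61, 75, 196, 207, 244, 250, 253, 254 or 258. The call of another regulator became 2 without a trend and 0 when only the compared groups were fitted, and 0 to 2 with a mouse left out (0 without mouse 196, 249 or 258, and 2 without mouse 16, 75, 199 or 254). The count of members that fell with age in controls (1, Mdm4) was 0 with a pseudocount of 0.1 and without a filter, and 0 to 2 with a mouse left out. It was 2 without mouse 34 and 0 without any 1 of mice 14, 16, 18, 26, 29, 61, 75, 77, 199, 207, 209, 211, 247, 249, 253, 254 and 258. The count of rises was 1 to 2 (2 without mouse 14). A change of the SMA difference with day gave 0 calls, or 1 without mouse 71 or 250. The F test of Trp53inp1 over control populations passed under 4 of 8 alternatives. The 37 calls of p53 targets became 25 to 39 under the alternatives and 30 to 41 with a mouse left out. No result changed its sign where it was called. With the mouse as a replicate block, 3 members differed between control populations and 0 differences changed with population, as without it; the other tests compare different mice and could not be paired. The planned use of a gene's main entry alone was not run, since no member had a further entry. The cause of these changes was not tested, except that smaller fits hold fewer samples. With all annotated exons as the gene length, a count of 0 at the median depth allows 0.0344 RPKM of Mdm4 and 0.160 of Ppm1d. In the shallowest library it allows up to 2.77 of Ppm1d. A shorter length would raise these limits.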
